A study of Mus musculus with 20 samples.

Results

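The subcortical maternal complex (SCMC) genes were examined in single mouse embryos at the 8 cell stage (8C, E2.5). The members were fixed by name as Nlrp5, Ooep, Tle6, Khdc3, Padi6, Zbed3, Nlrp2, Nlrp4f, Nlrp14 and Nlrp9b, which are 10 of the 34937 genes in the count files, and each was matched by its symbol. RNA was counted in 19 embryos, 9 Ehmt2Cntr and 10 Ehmt2Mat. Ehmt2 encodes G9a, the histone methyltransferase that deposits H3K9me2. Control embryos came from Ehmt2F/+ females and Ehmt2Mat embryos from Ehmt2F/- females, all carrying Zp3-Cre, which is active in growing oocytes, and males were Ehmt2+/-. The controls had the zygotic genotype +/+ (6 embryos) or +/- (3 embryos), and the Ehmt2Mat embryos had +/- (5 embryos, Ehmt2M/+) or -/- (5 embryos, Ehmt2M/Z). All were on a mixed background, only embryos of normal morphology were taken, the zona pellucida was removed before lysis, and mothers and litters are not given, so that the spread between embryos may hold differences between litters. Control embryo 4 was not analysed here.

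The SCMC is a multiprotein assembly under the plasma membrane of mouse oocytes and cleavage embryos. Its proteins are made in the growing oocyte and inherited by the embryo, while most of the maternal RNA is cleared around the 2 cell stage, and the 8C values here are RNA that was left over or newly made, which counts cannot separate. NLRP5 (MATER), OOEP (FLOPED), TLE6 and KHDC3 (FILIA) form its core, and loss of the maternal core components stops or impairs cleavage in the mouse. Each library is 1 whole embryo, so fewer cells with a transcript and less RNA per cell cannot be told apart.

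Promoter windows of 3 members are shown because Khdc3 was the member that differed between the maternal groups, Ooep is its partner in the core with a related KH fold, and Padi6 was an abundant member that did not pass the test. Each window holds the 250 bases before the RefSeq transcription start site (build GRCm38.p6), read 5′ to 3′ on the strand of the gene. Capitals mark the letters CANNTG, the E-box, which reads the same pattern on both strands. The windows are chr9:73102148-73102397 on the + strand for Khdc3, chr9:78378589-78378838 on the - strand for Ooep and chr4:140742644-140742893 on the - strand for Padi6.
Khdc3: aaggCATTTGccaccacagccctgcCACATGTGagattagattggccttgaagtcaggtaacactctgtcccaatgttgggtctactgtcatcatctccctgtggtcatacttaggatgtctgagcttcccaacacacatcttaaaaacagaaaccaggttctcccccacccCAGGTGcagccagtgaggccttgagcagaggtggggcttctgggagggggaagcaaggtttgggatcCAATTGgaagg
Ooep: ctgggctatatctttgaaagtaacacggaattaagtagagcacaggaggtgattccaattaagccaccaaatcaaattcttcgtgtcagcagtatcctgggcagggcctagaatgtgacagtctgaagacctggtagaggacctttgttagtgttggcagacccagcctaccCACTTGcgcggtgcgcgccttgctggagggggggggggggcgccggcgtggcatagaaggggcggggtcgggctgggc
Padi6: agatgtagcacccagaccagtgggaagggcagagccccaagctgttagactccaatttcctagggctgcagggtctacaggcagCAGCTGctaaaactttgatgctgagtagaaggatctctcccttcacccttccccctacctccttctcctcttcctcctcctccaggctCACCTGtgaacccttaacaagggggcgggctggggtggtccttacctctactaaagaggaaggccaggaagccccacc

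The Khdc3 window held 5 matches, of which those starting 225 and 223 bases before the start site overlap each other, the Padi6 window held 2 and the Ooep window held 1. At least 1 match was present in 66.2% and at least 5 in 1.15% of all 32851 windows of this length in the table. In all 3 windows a match began 78 bases before the start site, written CAGGTG in Khdc3, CACTTG in Ooep and CACCTG in Padi6, and 0.484% of all windows had a match at that position. The other 10 windows found for members had none there. This position was not fixed in advance but picked from the windows, so 0.484% does not give the chance of such an agreement. Other positions also recurred among member windows, 62 bases before the start site in Nlrp9b and Zbed3 and 246 in Khdc3 and Zbed3. The Khdc3 window held 0 CG dinucleotides, against 11 in Ooep, 1 in Padi6 and a median of 6 over all windows. Of all windows 7.87% held none and 29.0% held at most 2. The windows of the other members held from 1 (Nlrp5) to 17 (Tle6), with 2 each in Nlrp2, Nlrp9b and Nlrp4f. Windows were found for 9 of the 10 members. The Khdc3 window lies wholly, and 137 bases of the Ooep window lie, inside the span of the Ensembl gene used for counting, so that in these 2 genes the RefSeq start site is downstream of the annotated gene start, while the Padi6 window lies outside its gene. A match in letters is a description and not a binding site, and neither binding nor methylation was measured in these embryos.

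Total counts per embryo ranged from 12985149 to 30053248 in controls and from 8231646 to 30602434 in Ehmt2Mat embryos, so that 3 counts were worth between 0.098 and 0.364 CPM (counts scaled to the TMM-adjusted library size). Mitochondrial genes took between 6.47% and 20.4% of counts in controls and between 8.03% and 21.7% in Ehmt2Mat embryos. Genes with at least 1 count were more numerous in most mutants. Control embryo 10 had 16142 of them, and the other controls had 12068 to 13230. Ehmt2Mat embryos 10 and 3 had 12754 and 13204, and the other mutants had 13271 to 16412. A relation of this number to the levels of the members was not tested. Of the cleavage embryo markers, 16 of 17 passed the low-count filter. Of 12 cumulus and granulosa cell markers, 5 (Amh, Fshr, Has2, Ptx3 and Foxl2) had no count in any embryo, and Amhr2 was the 1 marker that passed the filter. Ehmt2 itself, counted over all its exons whether or not they belong to the recombined part, had a mean of 141 ± 59.7 CPM over the controls (SD, n = 9) and 102 ± 32.7 CPM over the mutants (SD, n = 10, edgeR, adjusted p = 0.233), and this count does not check the deletion.

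First, the levels of the members were compared with each other in the 9 control embryos. Levels between genes are given as RPKM, that is CPM divided by the exon length in kilobases, and the amplification favours 3′ ends, so that division by length does not make genes fully comparable. Khdc3 had the highest median (33.1 RPKM, range 6.45 to 103), followed by Nlrp14 (21.8, range 7.79 to 37.1) and Padi6 (18.0, range 12.9 to 28.8). Tle6 was at a median of 8.34 RPKM and Nlrp5 at 6.46 RPKM. Zbed3 (3.70 RPKM), Ooep (1.56 RPKM) and Nlrp4f (1.22 RPKM) came next, Nlrp9b was at 0.119 RPKM, and the median of Nlrp2 was 0. Of the 4 core genes, Khdc3 was the highest and Ooep the lowest, although both encode KH-domain proteins.

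**Figure D1:**
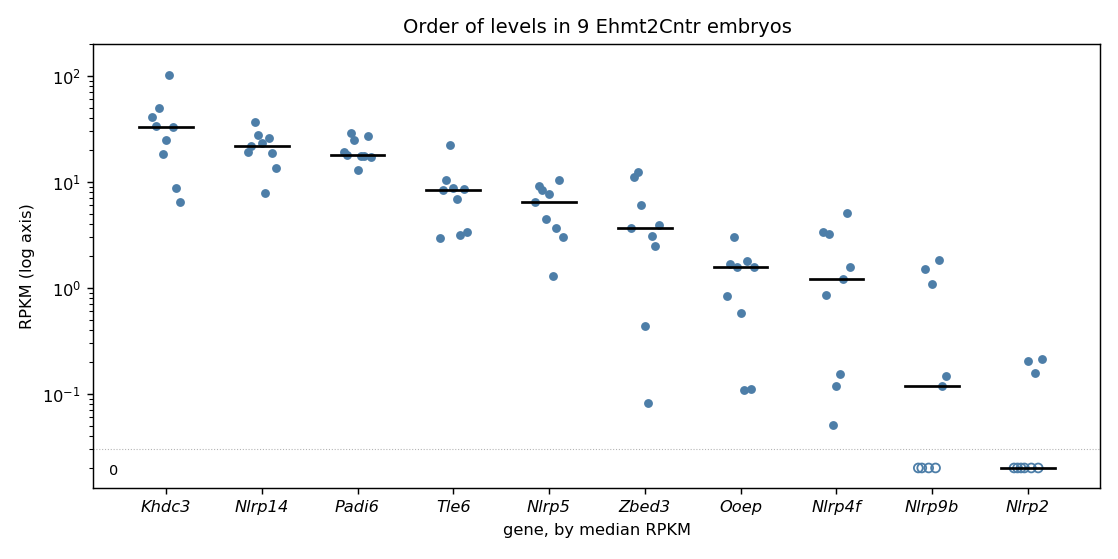
RPKM (log axis) of each member in the 9 Ehmt2Cntr embryos, 1 point per embryo with the median as a black line and open circles on the lowest line for embryos at 0. Genes are ordered by median, from Khdc3 at 33.1 RPKM to Nlrp2 at 0.

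Of the 9 pairs of neighbours in this order, 1 differed in an exact two-sided sign-flip test over the controls on log2(RPKM + 0.1), adjusted over the 9 pairs. The order, and so the choice of pairs, was taken from the same control embryos. These tests are therefore no separate check of the order. Padi6 was above Tle6 in 9 of 9 controls, by 1.52 ± 0.86 on the log2 scale (SD, n = 9, exact p = 0.0039, the smallest that 9 embryos allow, adjusted p = 0.0352). Zbed3 was above Ooep in 7 of 9 controls (exact test, adjusted p = 0.0703). Khdc3 was above Nlrp14 in 6 of 9 controls and Nlrp14 above Padi6 in 5 of 9, and neither pair differed beyond the spread between embryos (exact tests, adjusted p = 0.678 and 0.961). On the CPM scale, without the division by length, the order at the top changed to Nlrp14, Khdc3 and Padi6, and 2 neighbour pairs passed, Padi6 over Tle6 and Nlrp5 over Zbed3 (exact tests, adjusted p = 0.0352 for each).

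Next, Ehmt2Mat embryos were compared with Ehmt2Cntr embryos to ask whether these maternal transcripts depend on maternal G9a. Khdc3 fell in the Ehmt2Mat embryos and was the 1 member called among the 8 that passed the low-count filter, with Nlrp2 and Nlrp9b left untested. Across all 11754 genes tested, 9.35% were called in either direction with 4.37% higher and 4.98% lower. The median log2 fold change was -0.17 over the 8 tested members and -0.04 over all genes tested. A single call among 8 members is therefore near the background of this comparison.

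**Figure D2:**
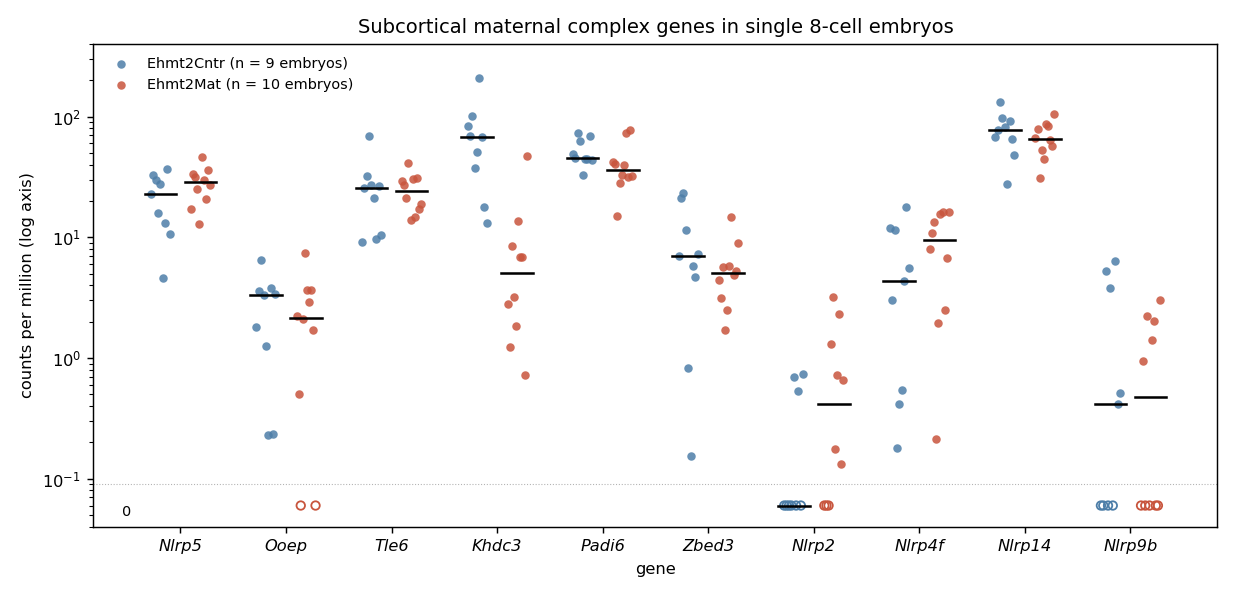
CPM (log axis) of the 10 members in each of 9 Ehmt2Cntr (blue) and 10 Ehmt2Mat (red) embryos, with group medians as black lines and open circles for embryos with no count. The Khdc3 medians are 67.8 and 5.04 CPM, and the other tested members overlap widely between the groups.

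Khdc3 (ENSMUSG00000092622, chromosome 9, 73101836 to 73104438 on the + strand of GRCm38) encodes a KH-domain protein of the complex with a known part in euploidy of cleavage embryos. In controls it ranged from 13.2 to 211 CPM with a median of 67.8 CPM, and in Ehmt2Mat embryos from 0.725 to 47.6 CPM with a median of 5.04 CPM. All 10 mutants were below the control median and 8 of them were below every control, while 6 of 9 controls were above every mutant. The groups overlap only through Ehmt2Mat embryos 6 (13.8 CPM) and 10 (47.6 CPM) and control embryos 5 (37.9 CPM), 9 (17.8 CPM) and 10 (13.2 CPM). The change was -2.96 on the log2 scale (SE 0.65, 95% interval -4.31 to -1.62), or 0.128 of the control level, with an edgeR adjusted p of 0.0055. An exact permutation test over the 92378 splits of the embryos into 9 and 10, chosen after seeing the data, gave a difference of -3.51 in log2 CPM and an unadjusted two-sided p of 0.000249.

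The Khdc3 call held in all 19 fits that left out 1 embryo, with log2 fold changes between -3.81 and -2.57. Leaving out Ehmt2Mat embryo 10, the mutant with the highest Khdc3, moved the change to -3.81 (edgeR, adjusted p = 0.00032), and leaving out control embryo 7, the control with the highest, moved it to -2.57 (edgeR, adjusted p = 0.015). Khdc3 made up a median of 24.5% of the summed CPM of the 10 members in controls (range 7.45% to 68.1%) and 2.42% in Ehmt2Mat embryos (range 0.358% to 18.2%). Without Khdc3 the other 9 members summed to a median of 180 CPM in controls (range 99.0 to 313) and 183 CPM in mutants (range 117 to 238).

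Reads on Khdc3 exons are partly shared in the counting. Of the 2050 exon bases of Khdc3, 790 (38.5%) are also exon bases of Gm20509, an annotated gene on the same strand that joins exons of Khdc3 and of its neighbour Rsl24d1, and reads were counted for every gene they overlap. Gm20509 ranged from 1.48 to 41.9 CPM over the controls and from 0.155 to 6.32 CPM over the mutants, and because it holds the same reads it is no separate observation. Neither neighbouring gene passed the test. Rsl24d1, a ribosome biogenesis factor, was at 174 ± 60.6 and 187 ± 54.0 CPM (edgeR, adjusted p = 0.853), and Rab27a, a small GTPase, at 4.99 ± 3.14 and 5.06 ± 2.98 CPM (edgeR, adjusted p = 0.987, SD over 9 controls and 10 mutants). Outside Gm20509, none of the 2051 distinct windows of 50 bases in annotated Khdc3 transcripts, the read length here, occurs in a transcript of another gene.

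Among the partners of KHDC3 in the core, no other gene passed. Nlrp5, which encodes the NLR protein MATER, a maternal effect factor, ranged from 4.62 to 36.6 CPM in controls (median 22.9) and from 12.9 to 46.4 CPM in mutants (median 28.5). Its log2 fold change was 0.38 (SE 0.34, edgeR adjusted p = 0.552), and 7 of 10 mutants were above the control median. Ooep, the second KH-domain protein, was low throughout, from 0.231 to 6.51 CPM in controls (median 3.34) and from 0 to 7.37 CPM in mutants (median 2.16). It had 0 counts in Ehmt2Mat embryos 3 and 10 and 3 counts in control embryo 7, and its change of -0.15 (SE 0.86) had a 95% interval from -1.93 to 1.63. The Khdc3 estimate of -2.96 lies outside this interval, but the Khdc3 interval of -4.31 to -1.62 overlaps it. A difference in change between Ooep and Khdc3 was not tested. Tle6, a relative of the Groucho corepressors, ranged from 9.15 to 68.6 CPM in controls (median 25.8) and from 13.9 to 41.1 CPM in mutants (median 24.3), and every mutant lay within the control range. Its log2 fold change was -0.06 (SE 0.35, edgeR adjusted p = 0.946).

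Padi6 and Zbed3 also did not pass the test. Padi6, a peptidylarginine deiminase family member needed for the cytoplasmic lattices of the oocyte, ranged from 32.5 to 72.9 CPM in controls (median 45.5) and from 14.9 to 77.8 CPM in mutants (median 36.2). Here 4 mutants were below every control and 2 (embryos 7 and 9) above every control, with a log2 fold change of -0.32 (95% interval -0.87 to 0.23, edgeR adjusted p = 0.519). Zbed3, a BED zinc finger protein of the complex, ranged from 0.154 to 23.3 CPM in controls (median 7.01) and from 1.70 to 14.6 CPM in mutants (median 5.07). The widest spread was among the controls, with 2 of them above and 2 below every mutant (log2 fold change -0.67, SE 0.63, edgeR adjusted p = 0.580).

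The 4 other NLRP members, which carry a NACHT domain and leucine-rich repeats, lay on either side of their control levels. Nlrp14, whose protein is known to act with UHRF1 in the oocyte, was the most abundant of them, from 27.5 to 131 CPM in controls (median 77.3) and from 30.9 to 106 CPM in mutants (median 65.7). Every mutant fell within the control range, and the log2 fold change of -0.19 had the narrowest 95% interval of the tested members, from -0.72 to 0.34 (edgeR adjusted p = 0.729). Nlrp4f was at a median of 4.32 CPM in controls (range 0.181 to 17.9) and 9.45 CPM in mutants (range 0.213 to 16.2), with a log2 fold change of 0.57 (SE 0.75, edgeR adjusted p = 0.713). Nlrp2 had no count in 6 of 9 controls and in 3 of 10 mutants, reaching 0.732 CPM in controls and 3.18 CPM in mutants. Nlrp9b had no count in 4 controls and 5 mutants, reaching 6.34 and 3.04 CPM. Where an embryo had no count, up to 3 counts are allowed, and this floor covers counting error only. Nlrp4f and Nlrp9b share 5.95% and 7.79% of their 50-base transcript windows with other genes, mostly Nlrp4g and Nlrp9a, and Nlrp5 shares 6.55%, mostly with Nlrp5-ps, so that reads in these stretches cannot be assigned to 1 gene. Such reads were either counted for each gene or, if the alignment kept uniquely placed reads alone, are missing from these values, and the sources used here do not settle which.

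**Figure D3:**
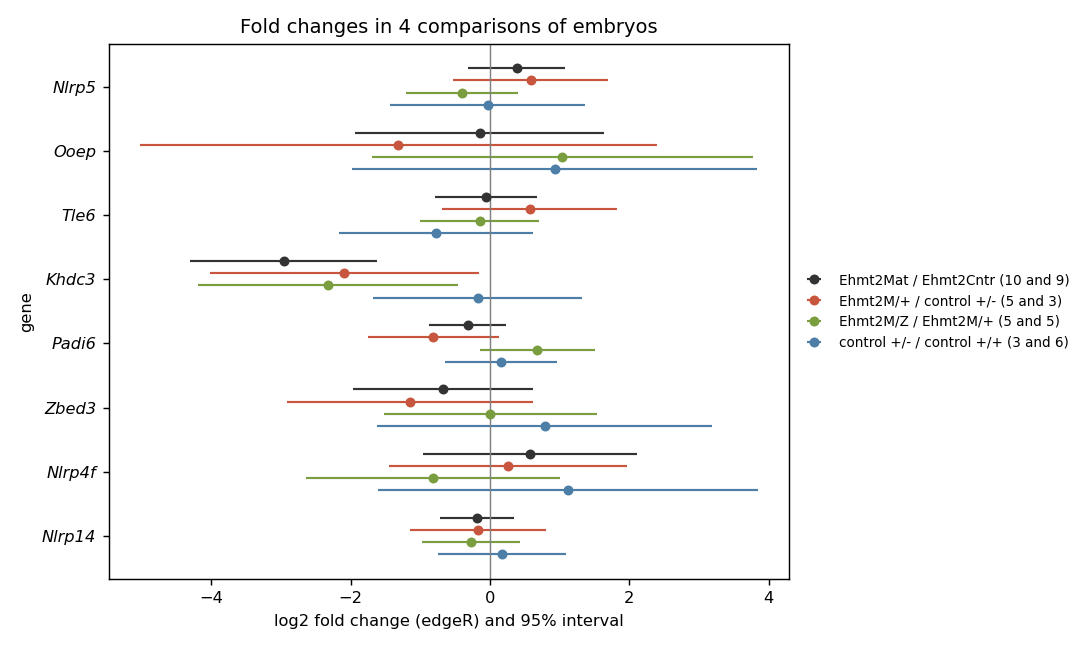
Log2 fold change (edgeR) with its 95% interval for the 8 members tested in the main comparison, in each of 4 comparisons of embryos (colours, with the number of embryos in brackets). Khdc3 lies at -2.96 in the comparison of Ehmt2Mat with Ehmt2Cntr (black), and the black intervals of the other 7 members cross 0.

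To separate the maternal from the zygotic genotype, embryos were then compared within a zygotic genotype and within a maternal group. Khdc3 was at 84.2, 102 and 13.2 CPM in control +/- embryos 1, 3 and 10. In Ehmt2M/+ embryos 2, 3, 6, 8 and 10 it was at 1.23, 8.48, 13.8, 6.92 and 47.6 CPM. In Ehmt2M/Z embryos 1, 4, 5, 7 and 9 it was at 2.78, 3.22, 1.86, 6.86 and 0.725 CPM. The M/Z embryos were thus all below every control embryo, while Ehmt2M/+ embryos 6 and 10 reached the lowest of the controls.

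**Figure D4:**
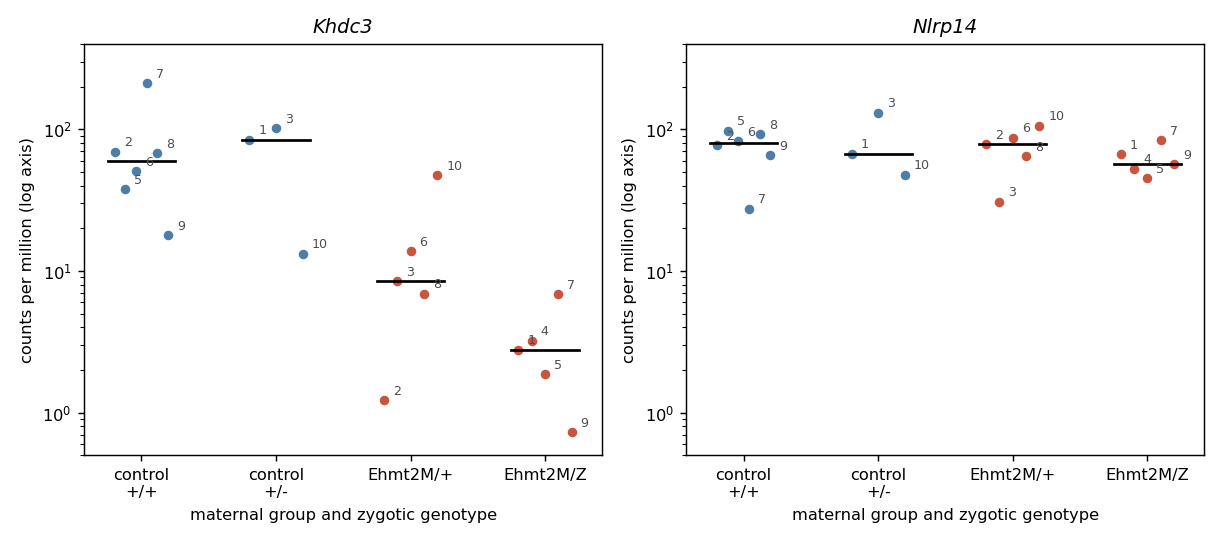
CPM (log axis) of Khdc3 (left) and Nlrp14 (right, an abundant member that was not called) in control +/+ (n = 6), control +/- (n = 3), Ehmt2M/+ (n = 5) and Ehmt2M/Z (n = 5) embryos, with embryo numbers beside the points and medians as lines. Median Khdc3 is 59.3, 84.2, 8.48 and 2.78 CPM, and median Nlrp14 is 79.7, 67.4, 78.4 and 56.6 CPM.

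With the zygotic genotype +/- on both sides, the change of Khdc3 was -2.09 (SE 0.89, 95% interval -4.02 to -0.16). It did not pass adjustment over the 13401 genes tested (edgeR, unadjusted p = 0.0357, adjusted p = 0.694), and 0 of 10 members were called here by edgeR or by DESeq2, with Khdc3 the 1 member at an unadjusted p under 0.05. Of all genes 0.00746% were called at the adjusted threshold, that is 1 gene. The share of all genes at an unadjusted p under 0.05 was not taken. Counts of members at that threshold, here and below, therefore have no background beside them. An exact two-sided permutation test on the 56 splits of 5 Ehmt2M/+ and 3 control embryos gave p = 0.143. Between Ehmt2M/Z and Ehmt2M/+ embryos Khdc3 differed by -2.33 (SE 0.87, 95% interval -4.19 to -0.46), again with 0 of 10 members and 0% of genes called (edgeR, unadjusted p = 0.018, adjusted p = 1.00, exact permutation p = 0.111), with DESeq2 calling 0 members and Khdc3 the 1 member at an unadjusted p under 0.05. Both contrasts share the Ehmt2M/+ embryos and lean on Ehmt2Mat embryo 10. Without it the difference between M/Z and M/+ was -1.29 (edgeR, unadjusted p = 0.149) and that between M/+ and control +/- embryos was -3.13 (edgeR, unadjusted p = 0.0028, adjusted p = 0.470).

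Within the controls, Khdc3 differed between +/- and +/+ embryos by -0.18 (95% interval -1.68 to 1.33), a value that turned to 0.46 without control embryo 7 and to 0.28 without control embryo 10, and 0 of 9 tested members and 0% of genes were called by edgeR, with 0 members at an unadjusted p under 0.05 and 0 called by DESeq2. The difference between the zygotic contrasts of the 2 maternal groups was -2.11 for Khdc3 (SE 1.10, edgeR adjusted p = 0.676, unadjusted p = 0.0676), with 0 of 10 members and 0% of genes called and 0 at an unadjusted p under 0.05. Padi6 lay in the opposite order within the mutants, with a median of 32.0 CPM in Ehmt2M/+ and 41.9 CPM in Ehmt2M/Z embryos and a log2 difference of 0.68 (SE 0.39) that did not pass.

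The members rose and fell together only in part from embryo to embryo. After the group means were subtracted from log2 CPM, the 28 pairs among the 8 tested members had Pearson correlations from -0.47 to 0.61 with a median of 0.21 over the 19 embryos, given as a description because all genes of an embryo share its library. Of the 28 pairs 21 were above 0, and pairs of other genes were not set beside them. Zbed3 and Nlrp14 were the most alike pair. Control embryo 7 had the lowest level of 4 of the 8 tested members among controls (Nlrp5, Ooep, Zbed3 and Nlrp14) and the highest Khdc3, and control embryo 3 had the highest level of 4.

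Genes whose embryo-to-embryo pattern was closest to each tested member were looked up among 11752 other tested genes. The nearest to Khdc3 was Gm20509 (r = 0.90), which holds part of the same reads, and the nearest after it was Arpc5 (r = 0.81), a subunit of the Arp2/3 actin complex. The nearest to Zbed3 was Gdf9 (r = 0.83), the growth factor secreted by oocytes, and to Ooep it was Mllt6 (r = 0.83). Klhl20 was nearest to Nlrp14 (r = 0.86), Zscan26 to Padi6 (r = 0.79), March9 to Nlrp5 (r = 0.77), Tulp3 to Nlrp4f (r = 0.76) and Spesp1, a sperm equatorial segment protein, to Tle6 (r = 0.71). For none of the 8 was another member the nearest, and the nearest member ranked between 92 (for Nlrp4f) and 2979 (for Khdc3) of 11752 genes. The pattern closest to the mean of the 8 members was again that of Gdf9 (r = 0.87), followed by Gch1 (0.85), Gls2 (0.80), Ebpl (0.79) and Larp1b (0.77). Gdf9 itself had a mean of 39.5 CPM over the controls (range 12.5 to 87.0) and 38.8 CPM over the mutants (range 26.0 to 57.0). These genes are the highest of a large search and were not tested.

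Among genes related to the members by sequence family, the paralogs of the non-NLRP members gave 3 lower and 0 higher calls of 11 tested, and the other NLR genes gave 0 of 8 (edgeR, against 9.35% of all genes). Khdc1a, a KH-domain relative of Khdc3 and Ooep, fell from 183 ± 72.2 to 67.9 ± 41.2 CPM (log2 fold change -1.43, SE 0.32, adjusted p = 0.0065). Khdc1c fell from 146 ± 96.2 to 37.5 ± 35.6 CPM (log2 fold change -1.96, SE 0.56, adjusted p = 0.0271), a call that was lost without control embryo 5, 8 or 9, while Khdc1b was at 103 and 111 CPM on average (adjusted p = 0.909). The Khdc1 genes are a family of similar copies whose shared reads may be counted for several copies or be missing, so their separate values are uncertain. Tle4, a Groucho corepressor related to Tle6, fell from 319 ± 265 to 116 ± 54.5 CPM (log2 fold change -1.46, SE 0.37, adjusted p = 0.0127).

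The maternal factors that act with the complex gave 1 higher call of 14 tested, where 9.35% of all genes were called in either direction. The gene called was Kpna6, an importin alpha, which rose from 71.2 ± 25.3 to 124 ± 50.2 CPM (log2 fold change 0.80, SE 0.23, adjusted p = 0.0329). The call was lost in 9 of 19 fits that left out 1 embryo (controls 1, 2, 3, 5, 7 and 8 and mutants 2, 4 and 9). Of the oocyte transcription factors, 3 of 8 were tested and 1 was called, Foxo3, a forkhead factor that restrains follicle activation, which fell from 87.2 ± 22.1 to 30.3 ± 8.89 CPM (log2 fold change -1.52, SE 0.22, adjusted p = 0.00032). Figla and Tbpl2, oocyte regulators of maternal genes, were under the filter, with Tbpl2 at 0 in every embryo.

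Markers of other cells and stages were set beside these values. Across all genes tested, 9.35% were called in either direction, with 4.37% higher and 4.98% lower. Of 9 oocyte markers tested, 1 was called, Oosp1, which rose from 11.8 ± 9.36 to 76.7 ± 52.4 CPM (log2 fold change 2.70, SE 0.54, adjusted p = 0.0028), and the 10 markers summed to 42.2 to 366 CPM in controls and 126 to 359 CPM in mutants. The cumulus and granulosa markers summed to 22.5 to 110 CPM and 43.9 to 166 CPM, with Amhr2 the largest by mean (54.6 and 75.2 CPM). Among mutants Inha reached 38.2 CPM (median 0.046) and Cyp11a1 30.7 CPM (median 0.916), against at most 0.127 and 0.090 CPM in controls. Cyp19a1 went the other way, reaching 4.97 CPM in controls and 0.473 CPM in mutants (median 0 in each group). Inha, Cyp11a1 and Cyp19a1 did not pass the low-count filter, and 0 of 1 marker tested was called. The 2 cell burst markers summed to between 0.118 and 19.2 CPM in controls and between 0.261 and 21.6 CPM in mutants, with 0 of 1 called by edgeR. Of the 16 cleavage embryo markers tested, 3 rose and 5 fell in Ehmt2Mat embryos. The list was chosen with earlier results known, and the study had reported Tead4, Tfap2c and Gata6 as changed in these embryos. Tead4 (log2 fold change 0.90), Tfap2c (0.75) and Klf17 (1.58) rose, and Gata6 (-1.85), Klf4 (-1.67), Klf5 (-1.49), Tfcp2l1 (-2.26) and Prdm14 (-2.07) fell, with edgeR adjusted p between 0.00049 and 0.0436. The Tfcp2l1 call was lost in 12 (at -1.59 without control embryo 7, adjusted p = 0.153) and the Prdm14 call in 8 of the 19 fits without 1 embryo. These 8 of 16 markers differed between the maternal groups in the same test as Khdc3, and their part in the Khdc3 difference was not tested.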

How the data were processed

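Whole 8C embryos were lysed singly, cDNA was amplified with a 3′ bias, and single-end 50 bp reads were sequenced. The authors deposited raw counts, that is reads per Ensembl gene (release 82, GRCm38), without normalization. Per the file headers these were made with featureCounts 1.5.0 on exons, with an overlap of at least 10 bases, without strand, counting a read for every gene it overlaps and keeping multi-mapping reads. The study's methods and the submitters' processing notes name TopHat2, and the methods give SeqMonk for gene counts, which the headers do not. The name of the counted alignment carries a mark that may stand for uniquely placed reads. If so, reads from stretches shared between genes would be missing rather than counted for each gene, and which holds is not given in the sources used here.

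The 10 members and the other gene lists were chosen with earlier results of these data known. edgeR 4.0.16 (R 4.3.3) was run on all genes that passed its low-count filter, with TMM normalization, the quasi-likelihood test and Benjamini-Hochberg adjustment at 0.05. CPM use TMM-scaled library sizes. For likeness, a prior count of 2 was added before taking log2 CPM. On simulated data, 67.0% of 112 genes changed by 2 on the log2 scale and 15.9% of 88 changed by 1 were recovered in the main comparison (11754 genes). By rule, genes named from other lists were those past the threshold in the main comparison. The nearest gene of each member was also named by rule. The cumulus and granulosa markers named here, Khdc1b, Figla and Tbpl2 did not pass that threshold and were named outside the rule. They, Arpc5 and single embryos were named after their values were seen. Alternatives were DESeq2 1.42.0, upper-quartile and RLE normalization, other filters, the embryo number as a replicate block and each embryo left out. Sequences are from RefSeq (GRCm38.p6), and shared windows from GENCODE transcripts.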

Additional observations from a re-analysis of the deposited data

Results flagged for a closer look

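In Ehmt2Mat embryo 4, Nlrp4f stood at -1.63 log2 CPM (0.213 CPM), apart from the other 9 mutants, with a gap to the nearest of them of 0.471 of the whole range of the group against a critical value of 0.466. This was the 1 separate value found among 20 groups of embryos, 10 members in 2 groups, and chance gives about 1 in 20.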

How the results depend on the processing

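The number of members called in the main comparison stayed at 1, Khdc3, under DESeq2, upper-quartile and RLE normalization, no low-count filter, a minimum of 10 counts in each embryo (where 5 members were tested) and the replicate block, and it was between 1 and 1 without each embryo in turn. The fits with DESeq2 and without the filter tested all 10 members. Over all genes, 1099 calls among 11754 tested became 2054 of 15365 with DESeq2 and 1201 of 21185 without the filter. There were 1375 of 7154 with the minimum of 10 counts and 693 of 11446 when the embryo number was a replicate block. Without 1 embryo, calls ranged from 884 of 11446 to 1262 of 11653 genes. The number of members called was 0 with RLE normalization and without the filter in the comparisons by zygotic genotype, the difference between contrasts included, and apart from that difference also with DESeq2 and, at 0 to 0, without 1 embryo. The block, run there only between Ehmt2M/+ and +/- controls, also gave 0 and moved Khdc3 from -2.09 to -0.89. The order of levels gave 2 pairs past the threshold on the CPM scale in place of 1. Equal embryo numbers did not pair the embryos (mean correlation of deviations 0.01 over 9 pairs, highest 0.09), so the block is only an alternative. It gave Khdc3 at -3.76 (edgeR adjusted p = 0.0079), a larger fall by more than 1.5 times in fold, Khdc1c at -2.60, and, among members not called, Nlrp4f at 1.41 in place of 0.57 and Tle6 at 0.06 in place of -0.06. The cause was not tested. Tle6 also turned positive without control 5 or without Ehmt2Mat 5 or 7 (up to 0.28), and Ooep without control 3 (0.12). The Kpna6, Tfap2c and Prdm14 calls were lost under the block. None of the other 7 tested members was called under any of these alternatives. Nlrp2 and Nlrp9b had no count in 9 of 19 embryos each, where up to 3 counts are allowed.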
